A study of Mus musculus with 24 samples.

Results

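The comparison described here sets TH1 effector cells that met antigen-loaded macrophages for 6 hours against TH1 effector cells that did not. It uses the 6 libraries titled as reactivated effector and the 6 titled as effector, 12 of the 24 libraries of the series, and pairs them by the number in the title. The CD4 T cells of all 4 groups came from spleens of mice on a C57BL/6 background. The mice carried OT-II, a receptor transgene through which most of their helper cells recognise ovalbumin, and an Nr4a1-EGFP/cre transgene, in which the Nr4a1 (Nur77) promoter drives a green fluorescent reporter upon receptor signals. Effector cells had spent 5 days in TH1 differentiation, and reactivated cells had in addition been cultured with the macrophages. Naive cells were not stimulated, and activated naive cells were stimulated for 6 hours in a way the labels do not name. Cells were sorted before RNA was extracted, and the gate is not given in the sources used here. TH1 cells cultured with macrophages that carried no antigen are not among the groups, so that the antigen, the macrophages and the added culture cannot be told apart. Whether the 6 libraries of 1 group are separate animals is not stated. Unless another fit is named, the p-values come from a fit of all 24 libraries. They measure only the spread among libraries, for which the 4 groups share a common estimate.

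TH1 cells are the helper T cells that make interferon gamma and instruct macrophages to kill what they have taken up. When a TH1 cell meets its peptide on MHC class II of a macrophage, T cell receptor signals reach the NFAT, AP-1 and NF-kB transcription factors, and cytokine genes that are silent or low in the rested effector are transcribed within hours. The same signals start transcripts of feedback inhibitors and checkpoint receptors, and they can change growth, metabolism and trafficking genes.

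The counts assigned to genes numbered 20940635 to 33383234 in effector and 22146672 to 34262645 in reactivated libraries. CPM is the count after scaling every library to the same total with TMM factors, and a gene was called where its Benjamini-Hochberg adjusted p in edgeR was under 0.05. The log2 fold change is the fitted one, and the SE given with it is that of the 6 paired log2 differences, taken after adding 0.5 to each count. For genes with few or no effector counts, such as Xcl1, Il2 and Il3, the SE depends on that addition and does not measure the uncertainty of the fold. Ranges are given as the lowest to the highest library with the median in parentheses. A gene said to go from 1 CPM value to another is given by its effector and reactivated means. Of 12584 genes tested, 10111 were called (80.3%), 5051 higher (40.1%) and 5060 lower (40.2%) in reactivated cells, and the median log2 fold change of all genes tested was -0.0035. The same direction in all 6 pairs was found for 4698 genes that were higher (37.3%) and 4667 that were lower (37.1%). A change of at least 2-fold was found for 1667 genes called higher (13.2%) and 2471 called lower (19.6%). The values of the 6 and 6 libraries did not overlap for 3769 genes that were higher (30%) and 3703 that were lower (29.4%). With so many genes called, a count of called members in a gene group is to be read against these shares.

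**Figure D1:**
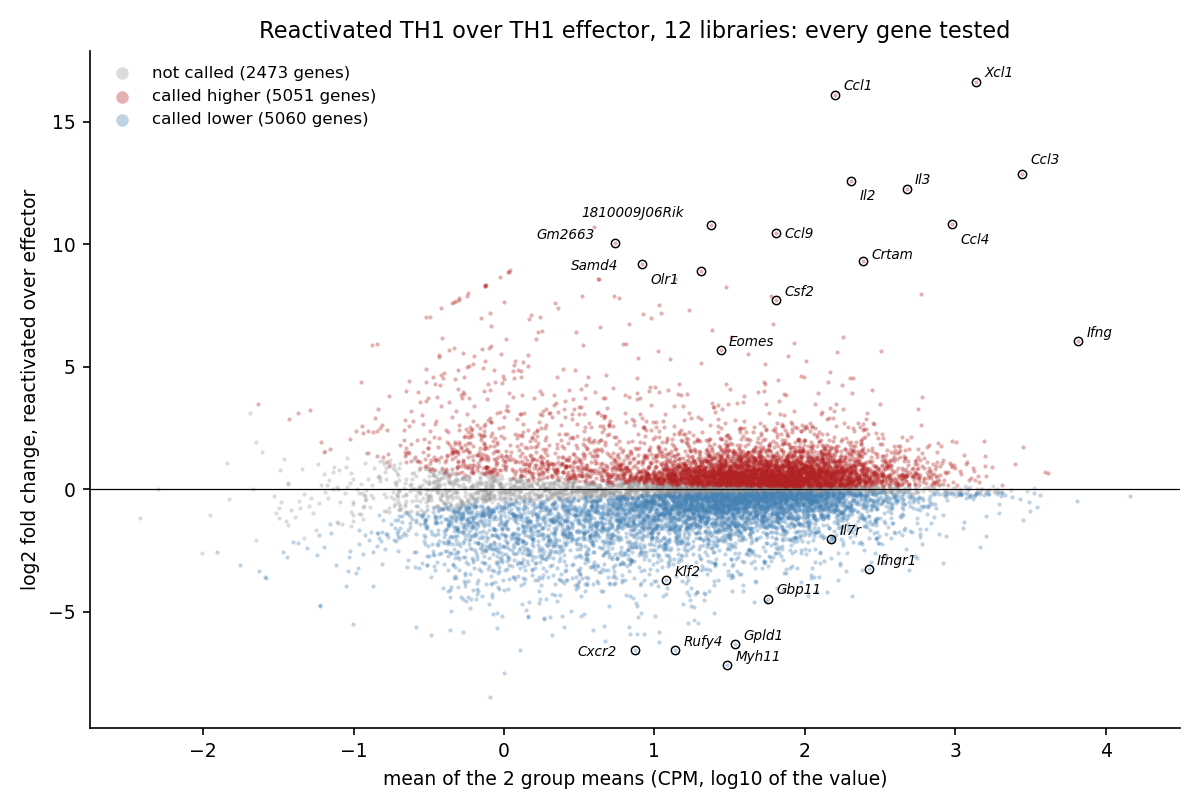
Log2 fold change of reactivated over effector libraries (y axis) against the mean of both group means in CPM (x axis, log10 of the value) for the genes tested, red where called higher, blue where called lower and grey where not called, with some of the named genes circled and labelled; 2 genes with no counts in these 12 libraries are not drawn. Chemokine and cytokine genes lie at the top, led by Xcl1, where Ccl1 is drawn at a fitted value that is no measured fold because it had no effector counts, and Ifng lies farthest to the right among the labelled genes, at a log2 fold change of 6.05.

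The libraries carried the genes of CD4 T cells in both states. Cd3e, a chain of the T cell receptor complex, averaged 219.9 ± 8.32 CPM (SD, n = 6) in effector and 279 ± 8.84 CPM in reactivated libraries, and Cd4 averaged 459 ± 21 and 427 ± 41 CPM. Cd4 was not called (adjusted p = 0.0581), but it was called lower with the DESeq2 Wald test (adjusted p = 0.00133), with RLE scaling (0.00417) and with scaling by library size alone (0.00021). Tbx21, which encodes the TH1 master factor T-bet, ranged from 83.1 to 111 CPM (median 101) in effector and 143 to 240.99 CPM (196) in reactivated libraries (log2 fold change 0.95, SE 0.12, adjusted p = 1.96e-08). All reactivated libraries lay above all effector libraries for Tbx21.

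Macrophage RNA was looked for in the sorted cells, because the reactivated cells alone had been cultured with macrophages. The summed level of 30 macrophage markers was 22.2 to 30.3 CPM in effector and 262 to 617 CPM in reactivated libraries. Of the 20 markers that could be tested, 15 were called higher and 3 lower, beside 40.1% and 40.2% of all genes tested. In effector libraries 22 of the 30 averaged under 1 CPM, and such a marker could pass the filter on low counts through a group where it was high. The count called higher therefore follows in part from the filter. No effector library had a count for 8 of the 30 markers, while each of the 30 had a count in some reactivated library and 16 of them averaged under 1 CPM there. In reactivated libraries the sum came mainly from Spp1 (osteopontin), which T cells can make too, at 6.34 CPM in effector and 323 CPM in reactivated libraries. Among defining markers, Csf1r, the receptor for the macrophage growth factor, had no counts in effector libraries and 0.355 to 1.11 CPM in reactivated ones, and Emr1, which encodes the surface marker F4/80, had none and 0.302 to 1.11 CPM. Lyz2 (lysozyme) averaged 0.0697 and 5.98 CPM, Il1b averaged 0.0868 and 8.64 CPM, and Cd14 averaged 0.416 and 0.358 CPM and was not called (adjusted p = 0.61). In bulk RNA, fewer cells of a type and less RNA per cell cannot be told apart. The part of macrophage RNA in the results below was not tested.

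Most cytokine genes rose, and their median change was exceeded only by those of the chemokines and of the macrophage markers among the gene groups examined. Of 19 tested members of the helper cytokine list, 15 were called higher, 3 lower and 1 was not called, with a median log2 fold change of 2.37. Of the 23 listed, 12 averaged under 1 CPM in effector and 6 in reactivated libraries, so the filter on low counts has a part in this count and median too. Ifng, the gene of interferon gamma (chromosome 10, 118441046 to 118445892 in mm10), was already on in effector cells and ranged from 91.2 to 264 CPM (median 204) in effector and 9168 to 19064 CPM (12114) in reactivated libraries. Every reactivated library lay far above every effector library (log2 fold change 6.05, SE 0.21, adjusted p = 5.61e-14, 66.2-fold). Ifng alone took 0.00947% to 0.0276% of the counts given to genes in effector libraries and 0.901% to 1.76% in reactivated libraries.

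Other cytokines started from near zero. Il2, the gene of the T cell growth factor interleukin 2 (chromosome 3, 37120523 to 37125959), ranged from 0 to 0.0912 CPM (median 0.0657) in effector and 219 to 698 CPM (391) in reactivated libraries (log2 fold change 12.57, SE 0.35, adjusted p = 1.37e-11). Il3, which encodes a growth factor for myeloid cells and mast cells (chromosome 11, 54265303 to 54267277), ranged from 0 to 0.424 CPM (median 0.111) in effector and 670.1 to 1274 CPM (868) in reactivated libraries (log2 fold change 12.27, SE 0.53, adjusted p = 1.45e-19). Csf2, the gene of GM-CSF, which acts on macrophages and granulocytes (chromosome 11, 54247271 to 54249667), ranged from 0.228 to 1.06 CPM (median 0.546) in effector and 77.4 to 195 CPM (118) in reactivated libraries (log2 fold change 7.72, SE 0.27, adjusted p = 5.15e-14). The highest effector value among these 3 genes, 1.06 CPM for Csf2, lay far below the lowest reactivated value, 77.4 CPM, also for Csf2.

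Tnf, Il10, Il21 and Lta, also expressed in effector cells, changed less than Ifng, although Ifng started from a higher level than Tnf, Il10 and Il21. Tnf, which encodes tumour necrosis factor, ranged from 29.1 to 36.2 CPM (median 32.2) in effector and 189.5 to 447 CPM (317) in reactivated libraries (log2 fold change 3.27, SE 0.20, adjusted p = 1.03e-12). Il10, the gene of an anti-inflammatory cytokine that TH1 cells can make beside interferon gamma, ranged from 10.5 to 29.9 CPM (median 17.9) in effector and 34.7 to 202 CPM (96.5) in reactivated libraries (log2 fold change 2.37, SE 0.20, adjusted p = 3.87e-09), without overlap, although both groups spread widely. Il21, which encodes a cytokine that acts on B cells and T cells, ranged from 40.8 to 111 CPM (median 60.3) in effector and 87.3 to 321 CPM (192) in reactivated libraries and overlapped between the groups (log2 fold change 1.42, SE 0.37, adjusted p = 0.00042), yet was higher in all 6 pairs. Lta, the gene of lymphotoxin alpha, was higher in all 6 pairs, from 437 to 617 CPM (log2 fold change 0.53, SE 0.23, adjusted p = 0.0133), but was no longer called without the replicate block (adjusted p = 0.0512), with scaling by library size alone (0.0511) or in the first run alone (0.279). Il17f, a cytokine gene of another helper type, had no counts in effector libraries and averaged 1.16 CPM in reactivated ones. Its counts summed over the 6 reactivated libraries were, after scaling by summed library size, at least 70.3-fold higher than 3 counts over the 6 effector libraries would give.

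The 3 members called lower were Il24, Lif and Osm. Il24, of the interleukin 10 family, ranged from 28.2 to 57.2 CPM (median 49.8) in effector and 2.5 to 8.34 CPM (5.37) in reactivated libraries (log2 fold change -3.14, SE 0.33, adjusted p = 2.29e-11). Lif, which encodes a cytokine of the interleukin 6 family, ranged from 327 to 427 CPM (median 382) in effector and 119.9 to 214 CPM (157.8) in reactivated libraries (log2 fold change -1.29, SE 0.18, adjusted p = 6.51e-07). Its relative Osm went from 91.7 to 41.3 CPM (log2 fold change -1.15, SE 0.14, adjusted p = 4.44e-09). The groups did not overlap for any of the 3.

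Chemokine genes were the group with the highest median log2 fold change of those examined, 7.19, with 11 of 12 tested members called higher and 1 lower. Of the 16 listed, 12 averaged under 1 CPM in effector and 5 in reactivated libraries. Members low in effector cells could enter the test through a group where they were high. The count and the median therefore follow in part from the filter on low counts. Xcl1, the gene of lymphotactin, which attracts cross-presenting dendritic cells (chromosome 1, 164931644 to 164935527), had 4 counts over all effector libraries. It ranged from 0 to 0.0577 CPM (median 0.0152) in effector and 1913 to 3507 CPM (2999.8) in reactivated libraries (log2 fold change 16.64, SE 0.43, adjusted p = 9.27e-23). Ccl1, which encodes a ligand of the receptor CCR8 (chromosome 11, 82176657 to 82305690), had no counts in effector libraries and 201 to 486 CPM (median 269) in reactivated ones. By counts summed and scaled in the same way, that is at least 18503-fold higher than 3 counts over the effector libraries would give. Ccl3 and Ccl4 encode inflammatory chemokines that draw in myeloid cells and T cells. Ccl3 ranged from 0.317 to 1.64 CPM (median 0.597) in effector and 4352 to 7373 CPM (5286) in reactivated libraries (log2 fold change 12.85, SE 0.32, adjusted p = 9.94e-18), and Ccl4 ranged from 0.684 to 1.37 CPM (median 0.986) in effector and 1418 to 2244 CPM (1979) in reactivated libraries (log2 fold change 10.84, SE 0.15, adjusted p = 9.61e-18). In none of the 4 genes did the groups overlap, but the gene rule named all 4 for their large rises in every pair, so this was nearly set by the choice.

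Ccl9 went from 0.0913 to 128 CPM (log2 fold change 10.44, SE 0.32, adjusted p = 8.12e-21), and Ccl5, the gene of RANTES, went from 3.83 to 44.3 CPM (log2 fold change 3.52, SE 0.15, adjusted p = 5.91e-15). The exception was Cxcl11, a chemokine gene known to be induced by interferon gamma, which fell from 6.33 to 1.63 CPM (log2 fold change -1.82, SE 0.18, adjusted p = 1.37e-08), in all 6 pairs though with overlap. The gene annotation types Cxcl11 as a polymorphic pseudogene, and whether these cells make its protein was not tested. Macrophages are also known to make Ccl3, Ccl4 and Ccl9. Beside levels of 5539.9 CPM for Ccl3 and 1912 CPM for Ccl4, the macrophage markers Lyz2 and Csf1r averaged 5.98 and 0.724 CPM in the same libraries, and their part in these chemokine values was not tested.

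**Figure D2:**
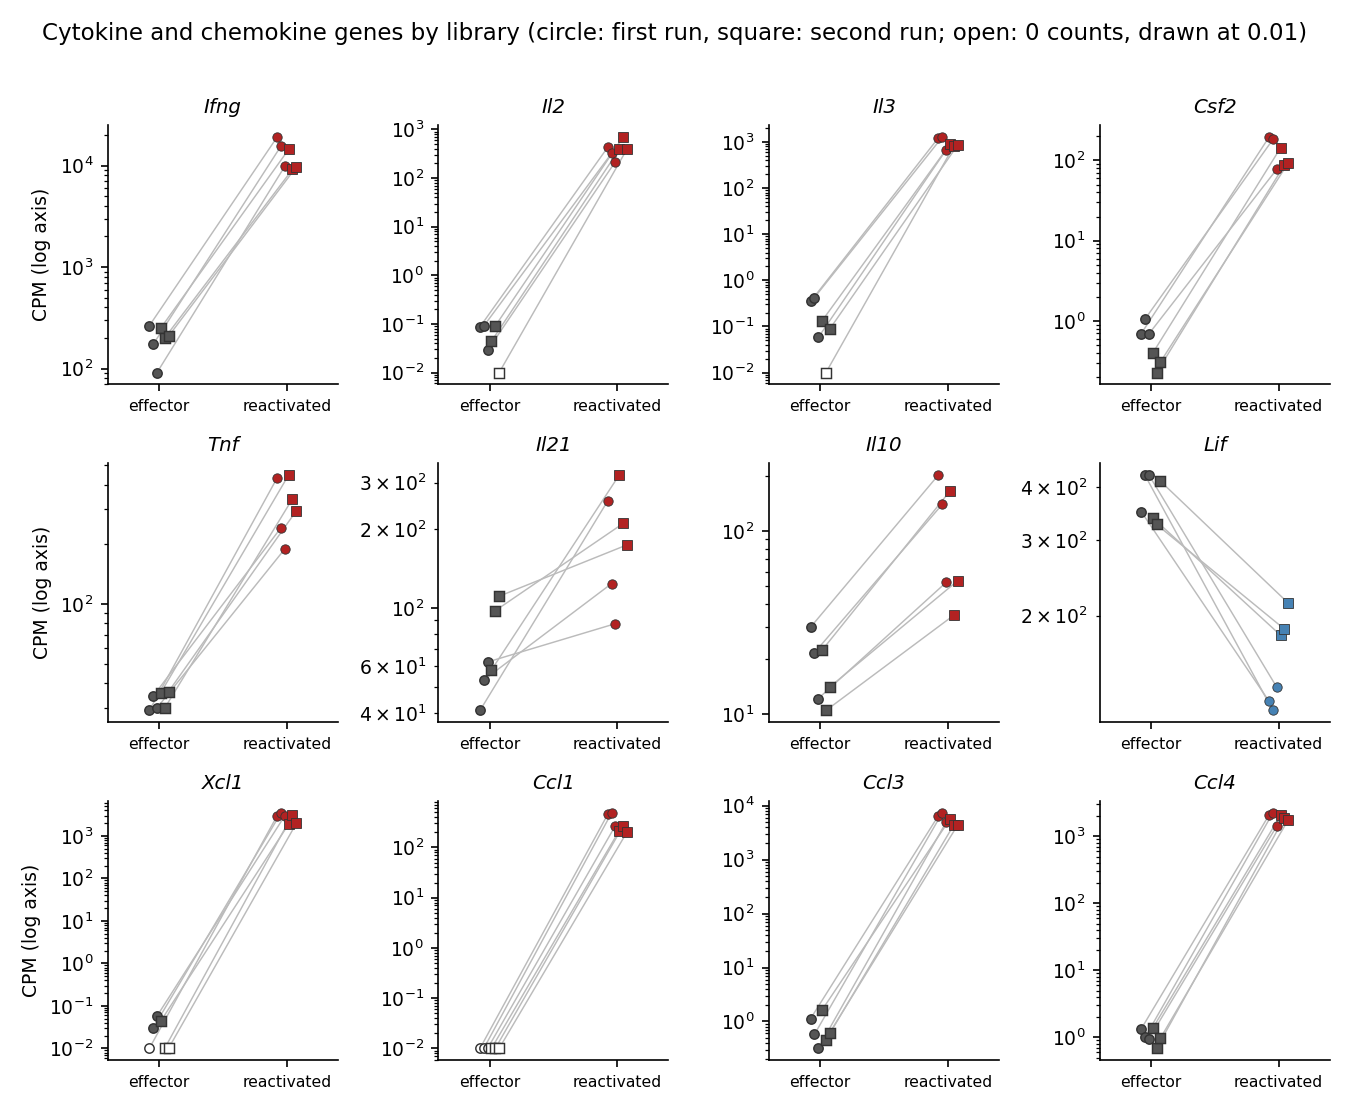
CPM on a log axis of 8 cytokine and 4 chemokine genes in the 6 effector and 6 reactivated libraries, with lines joining libraries of the same number, circles for the first run, squares for the second and open symbols for libraries with 0 counts, drawn at 0.01. All genes but Lif lie higher in the reactivated library of every pair, and only Il21 overlaps between the groups.

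The stretch of 250 bases before the annotated start (RefSeq, GRCm38.p6, the build of the files) was searched for the core NFAT motif TGGAAA on both strands, without regard to overlap with other motifs. The motif was found before 9 of the 14 helper cytokine genes that were called higher and had a promoter in the table (64.3%), against 18.6% of all 32851 promoters. The same share, 9 of 14 (64.3%), was found for interferon gamma inducible genes called lower, and 3 of 8 (37.5%) for chemokine genes called higher. The AP-1 motif TGANTCA was found before 0 of the 14 helper cytokine genes and before 6.75% of all promoters. Here and below, a gene counts where any of its promoters holds a match, whereas the shares of all are per promoter. A match is a description of the letters and not a site of binding, and the members were not chosen independently of their response. The promoters of Il2 (chr3:37125955-37126204, minus strand), Csf2 (chr11:54249900-54250149, minus strand) and Il21 (chr3:37232637-37232886, minus strand) are shown because these genes rose and hold the motif, which is in capitals. Each sequence is written 5′ to 3′ on the strand of the gene and ends at the base before the start.
Il2: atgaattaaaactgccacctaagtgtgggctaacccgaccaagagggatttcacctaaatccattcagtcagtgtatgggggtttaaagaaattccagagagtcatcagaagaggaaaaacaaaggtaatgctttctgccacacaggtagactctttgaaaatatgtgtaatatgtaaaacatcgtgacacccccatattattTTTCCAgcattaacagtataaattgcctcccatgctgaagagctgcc
Csf2: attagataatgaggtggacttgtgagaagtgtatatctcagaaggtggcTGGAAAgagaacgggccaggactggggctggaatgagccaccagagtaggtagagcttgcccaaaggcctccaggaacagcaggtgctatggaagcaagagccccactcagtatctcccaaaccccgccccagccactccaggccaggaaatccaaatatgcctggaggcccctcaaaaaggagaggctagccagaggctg
Il21: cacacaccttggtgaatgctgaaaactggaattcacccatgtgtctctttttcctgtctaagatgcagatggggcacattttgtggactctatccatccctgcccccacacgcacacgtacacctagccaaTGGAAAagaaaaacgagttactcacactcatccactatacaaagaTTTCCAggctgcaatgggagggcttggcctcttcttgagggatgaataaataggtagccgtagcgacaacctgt

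The promoter of Ifng, the cytokine with the highest level, held no NFAT core in this window (chr10:118440796-118441045, plus strand). It is shown with its 1 match to the STAT-type motif TTCNNNGAA, called GAS below, in capitals.
Ifng: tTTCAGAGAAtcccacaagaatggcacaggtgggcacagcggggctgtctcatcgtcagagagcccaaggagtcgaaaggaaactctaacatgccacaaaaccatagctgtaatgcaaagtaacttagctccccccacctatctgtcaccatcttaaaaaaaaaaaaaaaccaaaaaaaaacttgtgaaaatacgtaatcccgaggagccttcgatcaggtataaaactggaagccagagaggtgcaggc

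The gene rule also named 5 genes outside the cytokine and chemokine lists among the 12 with the highest fold changes. Crtam, which encodes an adhesion receptor of activated T cells linked to cytotoxic CD4 cells, ranged from 0.375 to 1.15 CPM (median 0.823) in effector and 323 to 626 CPM (464) in reactivated libraries (log2 fold change 9.33, SE 0.22, adjusted p = 3.16e-17). Samd4 (an RNA-binding protein gene) went from 0.0221 to 16.6 CPM and Olr1 (a receptor for oxidised lipoprotein that macrophages also express) from 0.0864 to 40.5 CPM. 1810009J06Rik and Gm2663, trypsin-like serine protease genes that lie near the T cell receptor beta locus, averaged 47.4 and 11 CPM in reactivated libraries against 0.0221 and 0.00739 CPM. In all 5 the groups did not overlap.

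The transcription factors that T cell receptor signals induce did not move as one group. Of 27 tested members of that list, 12 were called higher, 7 lower and 8 were not called, with a median of 0.23. Of all genes tested, 40.1% were called higher and 40.2% lower. Egr2, which encodes a zinc finger factor of both activation and restraint, ranged from 2.01 to 7.35 CPM (median 5.07) in effector and 296 to 409 CPM (362) in reactivated libraries (log2 fold change 6.23, SE 0.20, adjusted p = 2.22e-17). Egr3 went from 1.64 to 14.4 CPM (log2 fold change 3.07, SE 0.30, adjusted p = 5.73e-10). Among the orphan nuclear receptors, Nr4a3 ranged from 0.987 to 13.2 CPM (median 3.52) in effector and 113 to 314 CPM (206) in reactivated libraries (log2 fold change 5.24, SE 0.74, adjusted p = 2.45e-08). Nr4a2 ranged from 17.2 to 95.9 CPM (median 47) in effector and 109 to 321 CPM (176) in reactivated libraries (log2 fold change 1.97, SE 0.50, adjusted p = 3.27e-05), and neither gene overlapped between the groups.

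Nr4a1, whose promoter drives the reporter of these mice, was far less regular. It ranged from 133 to 498 CPM (median 296) in effector and 245.1 to 1918 CPM (589.6) in reactivated libraries and was higher in 4 of 6 pairs (log2 fold change 1.16, SE 0.66, adjusted p = 0.0139). It was no longer called with only the 12 TH1 libraries (adjusted p = 0.0995), in the second run alone (0.506), without number 1 (0.0544) or without number 2 (0.0784). Egr1 went the opposite way in each run. It was not called over all libraries (log2 fold change 0.51, SE 0.51, adjusted p = 0.174), was lower in the first run (log2 fold change -0.40, adjusted p = 0.00499) and was higher in the second (1.75, adjusted p = 0.000865).

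The AP-1 genes Jun, Fos and Fosl2 were called lower after 6 hours, though Fos and Fosl2 did not fall in every pair. Jun ranged from 112 to 182 CPM (median 136) in effector and 38.1 to 60.6 CPM (52.9) in reactivated libraries (log2 fold change -1.46, SE 0.0845, adjusted p = 8.59e-09) without overlap. Fos went from 17.5 to 8.91 CPM (log2 fold change -1.03, SE 0.39, adjusted p = 0.0174) and was lower in 5 of 6 pairs. It was not called in the second run (adjusted p = 0.359), without number 2 (0.0621) or without number 3 (0.0907). Fosl2 went from 230.9 to 65.9 CPM (log2 fold change -1.95, SE 0.51, adjusted p = 4.75e-05), with overlap between the groups. In number 1 Fosl2 was higher after reactivation (118 to 140.4 CPM). Batf3, which encodes a partner of JUN proteins, fell from 126 to 17.1 CPM (log2 fold change -2.905, SE 0.11, adjusted p = 7.88e-12), and Nfil3 fell from 114 to 30.7 CPM (log2 fold change -1.92, SE 0.12, adjusted p = 7.06e-14). Fosl1 went the other way, from 1.41 to 23.2 CPM (log2 fold change 4.04, SE 0.22, adjusted p = 1.39e-13). Irf4, whose dose follows the strength of receptor signals, averaged 683 and 872 CPM (log2 fold change 0.35). Irf8 was not called (183 and 212 CPM, adjusted p = 0.241). Myc averaged 466 and 598 CPM (log2 fold change 0.35, adjusted p = 0.005), a call that was lost with scaling by library size alone (adjusted p = 0.063) and in the first run (0.111).

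Among NF-kB subunits and targets, 15 of 21 were called higher and 4 lower (median 0.79). Rel, the gene of the subunit c-Rel, ranged from 11.9 to 23.3 CPM (median 16.5) in effector and 122 to 171 CPM (162.5) in reactivated libraries (log2 fold change 3.19, SE 0.20, adjusted p = 7.55e-13). Nfkbid, which encodes a nuclear IkB protein, went from 16.6 to 94.4 CPM (log2 fold change 2.46, SE 0.16, adjusted p = 8.85e-12), and Cd83 from 5.8 to 28 CPM. Map3k8, a kinase of the same pathway, fell from 149 to 40.9 CPM (log2 fold change -1.88, SE 0.15, adjusted p = 3.62e-12), and Bcl3, an atypical IkB gene, fell from 78 to 37.9 CPM.

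Feedback regulators of signalling had 23 of 34 members called higher and 9 lower (median 0.51). Rgs16, which encodes an inhibitor of G protein signals from chemokine receptors, ranged from 3.71 to 7.11 CPM (median 4.6) in effector and 962 to 1382 CPM (1171) in reactivated libraries (log2 fold change 7.97, SE 0.0877, adjusted p = 4.93e-20). Spry1, a brake on the RAS and MAPK pathway, went from 27.5 to 296 CPM (log2 fold change 3.46, SE 0.33, adjusted p = 6.38e-11). Ubash3b (STS-1), a phosphatase that acts on ZAP-70, went from 26.6 to 165.4 CPM (log2 fold change 2.63, SE 0.0738, adjusted p = 1.07e-17). The cytokine signalling inhibitors Socs2 and Socs3 were lower, from 214 to 18.2 CPM and 108 to 15.7 CPM (log2 fold change -3.59, SE 0.13, adjusted p = 2.69e-12 for Socs2). Sla2, an adaptor that lowers the receptor at the surface, fell from 67.9 to 8.79 CPM. The groups did not overlap for any of these 6 genes.

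The receptor complex itself and its proximal signalling genes showed no common direction, with 9 of 23 called higher and 11 lower (median -0.11), beside 40.1% and 40.2% of all genes tested. Lcp2 (SLP-76) and Lat, the adaptors that assemble the proximal signal, went from 324 to 888 CPM and from 245.3 to 573 CPM (log2 fold change 1.46, SE 0.0762, adjusted p = 2.34e-13 and log2 fold change 1.23, SE 0.0362, adjusted p = 1.79e-12). Bcl10, which links the receptor to NF-kB, went from 51.1 to 107 CPM. The kinase gene Txk fell from 10 to 1.61 CPM, the adaptor gene Grap2 (GADS) from 198 to 36.4 CPM and Rasgrp1, which activates RAS, from 343 to 75.9 CPM (log2 fold change -2.17, SE 0.0394, adjusted p = 1.21e-19).

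Surface molecules of the TNF family were higher in 13 of 20 and lower in 5 (median 1.11). Among ligands, Tnfsf11 (RANKL) ranged from 11.5 to 25.8 CPM (median 13.9) in effector and 293 to 558 CPM (357) in reactivated libraries (log2 fold change 4.52, SE 0.33, adjusted p = 1.11e-12). Tnfsf14 (LIGHT) went from 9.92 to 141 CPM and Tnfsf9 (4-1BB ligand) from 5.07 to 51.2 CPM. Cd40lg, through which helper T cells activate macrophages, ranged from 53 to 63.9 CPM (median 56.1) in effector and 173 to 295 CPM (277) in reactivated libraries (log2 fold change 2.11, SE 0.12, adjusted p = 8.4e-09). Each of these ligand genes separated the groups without overlap.

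Among receptors, Tnfrsf9 (4-1BB) ranged from 367 to 462 CPM (median 439) in effector and 1555 to 1706 CPM (1604) in reactivated libraries (log2 fold change 1.94, SE 0.0603, adjusted p = 1.1e-14). Tnfrsf4 (OX40) went from 244.4 to 541 CPM (log2 fold change 1.14, SE 0.0434, adjusted p = 6.55e-12). Tnfrsf8 (CD30) fell from 137 to 7.42 CPM (log2 fold change -4.17, SE 0.12, adjusted p = 1.1e-15). Tnfrsf18 (GITR) fell from 319.6 to 189 CPM (log2 fold change -0.77, SE 0.0908, adjusted p = 1.14e-08). Costimulatory receptors of one family therefore changed in both directions in the same libraries.

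CD28 family, SLAM and checkpoint receptors were higher in 16 of 23 and lower in 4 (median 1.21). Cd160, a receptor of the ligand HVEM, ranged from 0.798 to 2.01 CPM (median 1.03) in effector and 88.8 to 147 CPM (127) in reactivated libraries (log2 fold change 6.76, SE 0.21, adjusted p = 2.15e-18). Pdcd1 (PD-1) ranged from 7.01 to 14 CPM (median 7.95) in effector and 92 to 178 CPM (139) in reactivated libraries (log2 fold change 3.88, SE 0.10, adjusted p = 1.69e-15). Lag3, which binds MHC class II, ranged from 43.7 to 61.2 CPM (median 52.5) in effector and 392 to 528 CPM (462) in reactivated libraries (log2 fold change 3.13, SE 0.0252, adjusted p = 2.36e-12). Havcr2 (TIM-3), counted in the TH1 list, went from 3.5 to 152.3 CPM (log2 fold change 5.44, SE 0.29, adjusted p = 4.13e-12).

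Ctla4, the inhibitory counterpart of CD28, moved against these inhibitory receptors. It ranged from 496 to 720.1 CPM (median 586) in effector and 54.9 to 141 CPM (88.7) in reactivated libraries (log2 fold change -2.68, SE 0.25, adjusted p = 2.59e-06) and was lower in all 6 pairs. Icos, a costimulatory relative of CD28, ranged from 352 to 579.8 CPM (median 438) in effector and 134 to 198 CPM (155.7) in reactivated libraries (log2 fold change -1.48, SE 0.023, adjusted p = 3.2e-14). Cd226 (DNAM-1) fell from 5.83 to 1.63 CPM.

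The TH1 programme had 8 of 22 members called higher and 12 lower (median -0.38), beside 40.1% and 40.2% of all genes tested. Eomes, which encodes the T-box relative of T-bet, ranged from 0.532 to 1.5 CPM (median 1.1) in effector and 35 to 71.4 CPM (54.6) in reactivated libraries (log2 fold change 5.67, SE 0.15, adjusted p = 1.32e-11). Twist1, known to restrain TH1 inflammation, went from 2.21 to 15.5 CPM (log2 fold change 2.79, SE 0.18, adjusted p = 3.56e-11). Stat4, which carries the interleukin 12 signal, went from 116 to 186 CPM (log2 fold change 0.67, SE 0.15, adjusted p = 8.98e-06). The receptor chain for that signal, Il12rb2, fell and ranged from 608 to 1193 CPM (median 859) in effector and 240.1 to 352 CPM (281) in reactivated libraries (log2 fold change -1.62, SE 0.17, adjusted p = 5.52e-10). Il18r1, a chain of the interleukin 18 receptor, averaged 226 and 278 CPM and was not called (adjusted p = 0.11), though it was with only the 12 TH1 libraries (0.0122).

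Genes of other helper lineages were called higher in 6 of 16 and lower in 8 (median -0.56), beside 40.1% and 40.2% of all genes tested. Il1rl1, the interleukin 33 receptor, went from 3.2 to 105 CPM (log2 fold change 5.12, SE 0.27, adjusted p = 1.6e-16) and Bcl6, the factor of follicular helper cells, from 7.96 to 51 CPM (log2 fold change 2.72, SE 0.20, adjusted p = 9.18e-13). Il4ra, the interleukin 4 receptor chain, fell from 697 to 191 CPM (log2 fold change -1.87, SE 0.10, adjusted p = 3.96e-12), and Ikzf2 (Helios) fell from 21.8 to 4.03 CPM. Gata3, the TH2 factor, averaged 6.91 and 9.89 CPM and was not called (adjusted p = 0.117), though it was with only the 12 TH1 libraries (0.000293).

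Cytokine receptors moved in both directions as well, with 7 of 16 higher and 7 lower (median -0.16), near the shares of all genes tested (40.1% and 40.2%). Il2ra (CD25), the high-affinity chain for interleukin 2, fell as Il2 rose and ranged from 3689 to 4395 CPM (median 3947) in effector and 1449 to 1877 CPM (1676) in reactivated libraries (log2 fold change -1.25, SE 0.0318, adjusted p = 3e-14). Il7r, the survival receptor of resting T cells, ranged from 204 to 286 CPM (median 242.9) in effector and 44.7 to 76.3 CPM (58.6) in reactivated libraries (log2 fold change -2.03, SE 0.12, adjusted p = 1.34e-11). The decoy receptor gene Il1r2 rose from 5.66 to 92.8 CPM (log2 fold change 3.98, SE 0.13, adjusted p = 2.3e-15), and Il15ra went from 17.7 to 55.9 CPM.

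The interferon gamma receptor fell in the cells whose Ifng transcripts rose. Ifngr1, which encodes the ligand-binding chain, ranged from 274 to 663 CPM (median 464) in effector and 42.7 to 54.3 CPM (48.5) in reactivated libraries (log2 fold change -3.27, SE 0.20, adjusted p = 3.61e-15). Ifngr2, the signalling chain, ranged from 6.47 to 22.1 CPM (median 16.2) in effector and 1.49 to 5.98 CPM (2.92) in reactivated libraries (log2 fold change -2.25, SE 0.19, adjusted p = 2.79e-07). Irf1, a direct target of that receptor's signal, ranged from 284 to 466 CPM (median 344) in effector and 108 to 219 CPM (175) in reactivated libraries (log2 fold change -1.103, SE 0.0873, adjusted p = 1.9e-06). In these 3 genes no reactivated library reached the lowest effector library.

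Genes known to be induced by interferon gamma were lower in 23 of 26, higher in 1 and not called in 2 (median -1.10). Gbp11, of the family of guanylate-binding GTPases that attack intracellular microbes, ranged from 74.5 to 136 CPM (median 106) in effector and 2.12 to 8.26 CPM (5.19) in reactivated libraries (log2 fold change -4.47, SE 0.19, adjusted p = 4.33e-11). The gene annotation types Gbp11 as a polymorphic pseudogene, and whether these cells make its protein was not tested. Gbp4 ranged from 395 to 601 CPM (median 488) in effector and 46.6 to 194 CPM (111) in reactivated libraries (log2 fold change -2.19, SE 0.25, adjusted p = 1.18e-07). Gbp8 went from 160.8 to 18 CPM. Gbp5 and Tgtp1, the latter an immunity-related GTPase, fell from 266 to 81.8 CPM and from 152.7 to 43.7 CPM (log2 fold change -1.74, SE 0.10, adjusted p = 7.06e-07 and log2 fold change -1.87, SE 0.19, adjusted p = 9.54e-08). The 1 gene called higher was Irgm1, from 154.8 to 276 CPM (log2 fold change 0.7987, SE 0.0928, adjusted p = 0.000676).

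Genes known best as targets of type I interferon went the other way, with 22 of 35 higher, 2 lower and 11 not called (median 1.16). Rsad2 (viperin) ranged from 0.668 to 2.01 CPM (median 1.16) in effector and 8.66 to 56.2 CPM (23) in reactivated libraries (log2 fold change 4.29, SE 0.24, adjusted p = 2.61e-06). Mx1, an antiviral GTPase, ranged from 4.7 to 6.48 CPM (median 5.21) in effector and 30.9 to 170.2 CPM (91.5) in reactivated libraries (log2 fold change 3.995, SE 0.33, adjusted p = 8.33e-06). Oasl1 went from 0.479 to 6.46 CPM and Isg15, a ubiquitin-like modifier, from 6.17 to 46.6 CPM (log2 fold change 2.86, SE 0.17, adjusted p = 4.98e-07). Ddx58 (RIG-I) and Zbp1 were lower, from 43.1 to 26.3 CPM and 105 to 70.9 CPM, but neither was called in the second run alone (adjusted p = 0.17 and 0.385), and 1 type I gene was called lower without number 1 or without number 2.

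These lists had no single level within a group. The mean log2 CPM of the type I list was 3.10, 3.35, 3.64, 3.30, 4.10 and 3.85 in effector libraries 1 to 6, and 4.02, 4.42, 5.01, 5.01, 5.76 and 5.50 in the reactivated libraries of the same numbers. That of the interferon gamma list was 7.45, 7.68, 7.88, 7.70, 8.20 and 8.01 in effector libraries and 5.87, 6.14, 6.60, 6.63, 7.06 and 6.93 in reactivated ones. Numbers 5 and 6 were the highest for both lists in both groups, and within every number the type I list was higher and the interferon gamma list lower after reactivation. With numbers 5 and 6 left out, a choice made on seeing the data, 22 type I genes were higher and 4 lower, and 24 interferon gamma genes were lower and 1 higher. The part of macrophage RNA in the type I list, whose genes macrophages express too, was not tested.

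**Figure D3:**
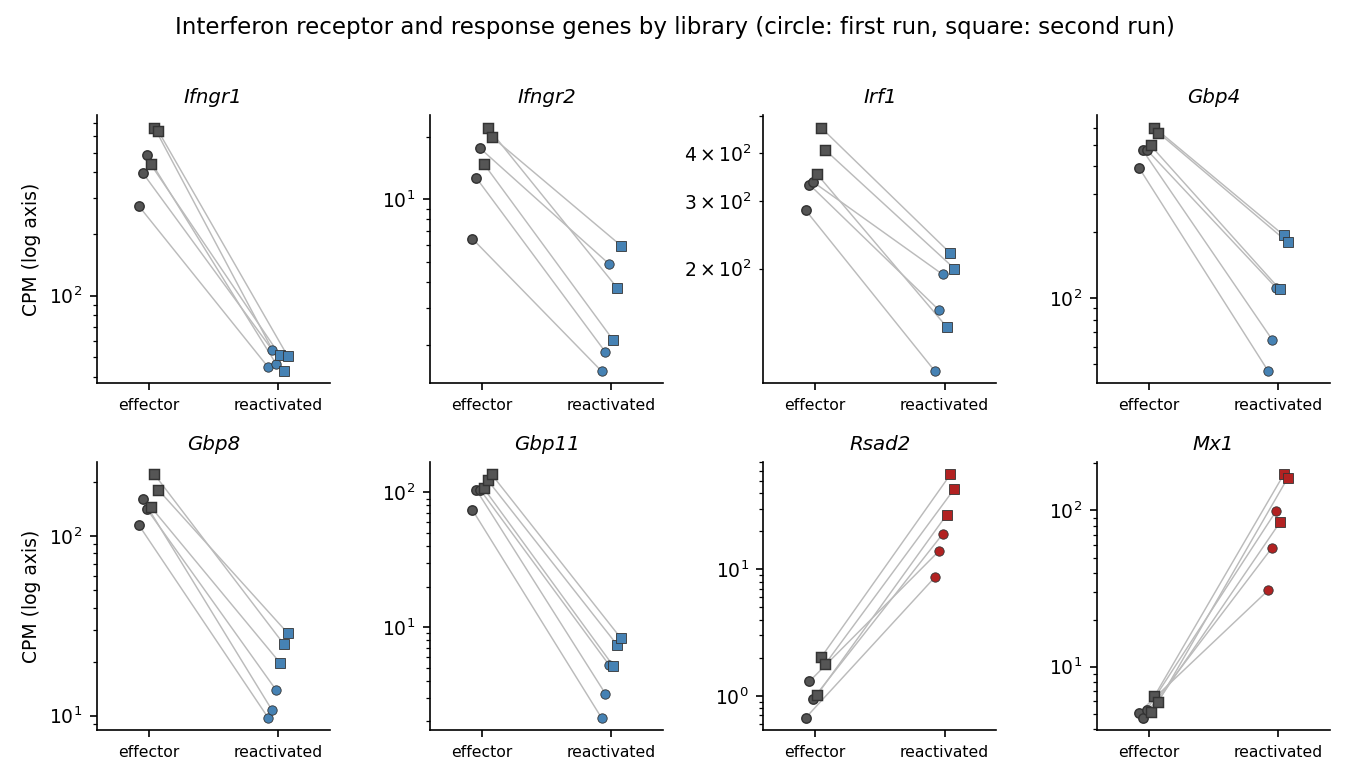
CPM on a log axis of 6 interferon gamma receptor and target genes and of the type I targets Rsad2 and Mx1 in the 6 effector and 6 reactivated libraries, with lines joining libraries of the same number, circles for the first run and squares for the second. The first 6 genes fall and the last 2 rise in every pair, without overlap between the groups.

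The promoters of these lists were searched for GAS and for the interferon-stimulated motif, called ISRE here, which is GAAA followed after any 2 bases by a second GAAA. Both strands were searched, and matches may overlap each other. Of 23 interferon gamma genes called lower, 14 had a promoter in the table, and 8 of these (57.1%) held a GAS match and 8 (57.1%) an ISRE match, against 7.02% and 2.98% of all promoters. Of 22 type I genes called higher, 17 had one, and 8 (47.1%) held an ISRE match and 3 a GAS match. The promoters of Gbp5 (chr3:142496684-142496933, plus strand) and Tgtp1 (chr11:48992247-48992496, minus strand), which fell, and of Isg15 (chr4:156200819-156201068, minus strand), which rose, are shown with every GAS and ISRE match in capitals. Gbp5 holds 2 GAS matches and 1 ISRE match, Tgtp1 holds 1 of each, and Isg15 holds 3 ISRE matches in 1 run.
Gbp5: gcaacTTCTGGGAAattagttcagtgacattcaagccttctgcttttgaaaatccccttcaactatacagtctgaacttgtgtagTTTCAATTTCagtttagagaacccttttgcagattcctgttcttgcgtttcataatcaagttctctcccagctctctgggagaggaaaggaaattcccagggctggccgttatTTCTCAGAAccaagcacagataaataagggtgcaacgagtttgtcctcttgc
Tgtp1: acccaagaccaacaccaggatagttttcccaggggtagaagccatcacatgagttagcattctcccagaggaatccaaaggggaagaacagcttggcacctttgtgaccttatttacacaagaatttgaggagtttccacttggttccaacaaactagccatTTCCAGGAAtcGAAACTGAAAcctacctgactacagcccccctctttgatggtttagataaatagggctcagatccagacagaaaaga
Isg15: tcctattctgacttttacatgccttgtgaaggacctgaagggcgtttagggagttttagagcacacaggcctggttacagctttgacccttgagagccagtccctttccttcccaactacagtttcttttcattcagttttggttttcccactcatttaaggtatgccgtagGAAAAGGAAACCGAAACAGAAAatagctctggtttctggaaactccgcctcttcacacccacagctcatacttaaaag

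Most genes of glycolysis, hypoxia and lipid synthesis were lower after reactivation. Of 22 glycolysis genes 20 were lower and 2 higher (median -0.90). Aldoc, an aldolase, ranged from 48.3 to 141 CPM (median 108) in effector and 5.94 to 17.3 CPM (11.6) in reactivated libraries (log2 fold change -3.14, SE 0.14, adjusted p = 8.15e-13). Slc16a3, which exports lactate, ranged from 134 to 376 CPM (median 271) in effector and 18.9 to 63.9 CPM (34.5) in reactivated libraries (log2 fold change -2.82, SE 0.15, adjusted p = 1.44e-12). Tpi1 and Gapdh, at the centre of the pathway, fell from 1377 to 361 CPM and from 4099 to 2190.4 CPM (log2 fold change -1.92, SE 0.0812, adjusted p = 1.55e-12 and log2 fold change -0.9021, SE 0.0248, adjusted p = 2.22e-10). The exceptions were Slc16a1, the other monocarboxylate transporter of the list, from 104 to 267 CPM (log2 fold change 1.36, SE 0.0678, adjusted p = 5.04e-15), and Pfkfb3, which makes an activator of phosphofructokinase, from 71.2 to 154.99 CPM (log2 fold change 1.15, SE 0.12, adjusted p = 1.31e-08).

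Of 16 hypoxia targets 15 were lower and 1 higher (median -1.47). Bnip3, a mitophagy receptor, ranged from 103 to 263 CPM (median 225) in effector and 5.07 to 14.4 CPM (8.95) in reactivated libraries (log2 fold change -4.35, SE 0.10, adjusted p = 1.05e-12). Its relative Bnip3l fell from 223 to 27.8 CPM, and Pdk1, which inhibits pyruvate dehydrogenase, fell from 179.8 to 32.5 CPM (log2 fold change -2.47, SE 0.10, adjusted p = 3.04e-11). Hif1a, the gene of the oxygen-regulated factor itself, ranged from 1326 to 2058 CPM (median 1725) in effector and 481 to 662 CPM (556) in reactivated libraries (log2 fold change -1.58, SE 0.15, adjusted p = 2.13e-12). Ndrg1 was the 1 gene called higher, from 142 to 216 CPM, and its groups overlapped.

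Cholesterol and fatty acid synthesis genes were lower in 29 of 33 and higher in 2 (median -1.19). Mvd and Acss2, which make isoprenoid precursors and acetyl-CoA, fell from 64.7 to 6.32 CPM and from 20 to 1.31 CPM (log2 fold change -3.34, SE 0.12, adjusted p = 4.9e-18 and log2 fold change -3.95, SE 0.21, adjusted p = 7.32e-15). Scd1, a desaturase, fell from 216 to 37.1 CPM, and Sqle, a step of the sterol branch, fell from 114 to 76.5 CPM (log2 fold change -0.56, SE 0.0872, adjusted p = 2.29e-07). Acaca and Fasn, which together make palmitate, were the genes called higher, from 96.7 to 217 CPM and 496 to 808 CPM (log2 fold change 1.17, SE 0.0543, adjusted p = 7.35e-13 and log2 fold change 0.71, SE 0.11, adjusted p = 3.91e-08). Both were higher in all 6 pairs without overlap.

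Respiratory chain and TCA cycle genes changed little, with 15 of 31 higher, 6 lower and 10 not called (median 0.078). Cycs (cytochrome c) went from 83.1 to 180.2 CPM and Idh2 from 47.4 to 21.2 CPM. With scaling by library size alone 12 of the 31 were lower, so the balance of this list rests on the scaling.

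Growth genes were higher in the same libraries. All 41 tested genes of ribosome production and MYC targets were called higher (median 1.55). Grwd1, a ribosome assembly factor gene, ranged from 16.7 to 24 CPM (median 22.3) in effector and 126 to 148 CPM (142) in reactivated libraries (log2 fold change 2.72, SE 0.0942, adjusted p = 3.81e-18), and Rrp9 went from 35 to 198 CPM. Utp20, of the small subunit processome, went from 60.1 to 391 CPM (log2 fold change 2.698, SE 0.0808, adjusted p = 1.82e-18). Odc1, which starts polyamine synthesis, went from 540.3 to 1035 CPM (log2 fold change 0.95, SE 0.16, adjusted p = 3.15e-08). Chaperones and the unfolded protein response had 25 of 29 members higher and 1 lower (median 0.87). Hspa5 (BiP), the main chaperone of the endoplasmic reticulum, ranged from 587 to 689.9 CPM (median 636) in effector and 2072 to 2912 CPM (2534) in reactivated libraries (log2 fold change 1.97, SE 0.0587, adjusted p = 5.94e-17). Hyou1 and Hsph1 went from 164.6 to 724 CPM and 92.9 to 408 CPM.

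Amino acid supply and ATF4 targets were higher in 18 of 27 and lower in 4 (median 0.76). Bcat1, which transfers amino groups from branched-chain amino acids, went from 56.9 to 329.6 CPM (log2 fold change 2.54, SE 0.0374, adjusted p = 1.22e-15). Shmt1, of one-carbon metabolism, went from 41 to 209 CPM and Slc1a5, a glutamine carrier, from 275 to 855 CPM. The stress genes Ddit3 (CHOP) and Trib3 fell from 43.1 to 21.8 CPM and 30.8 to 19.2 CPM (log2 fold change -0.99, SE 0.0923, adjusted p = 2.41e-10 for Ddit3).

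**Figure D4:**
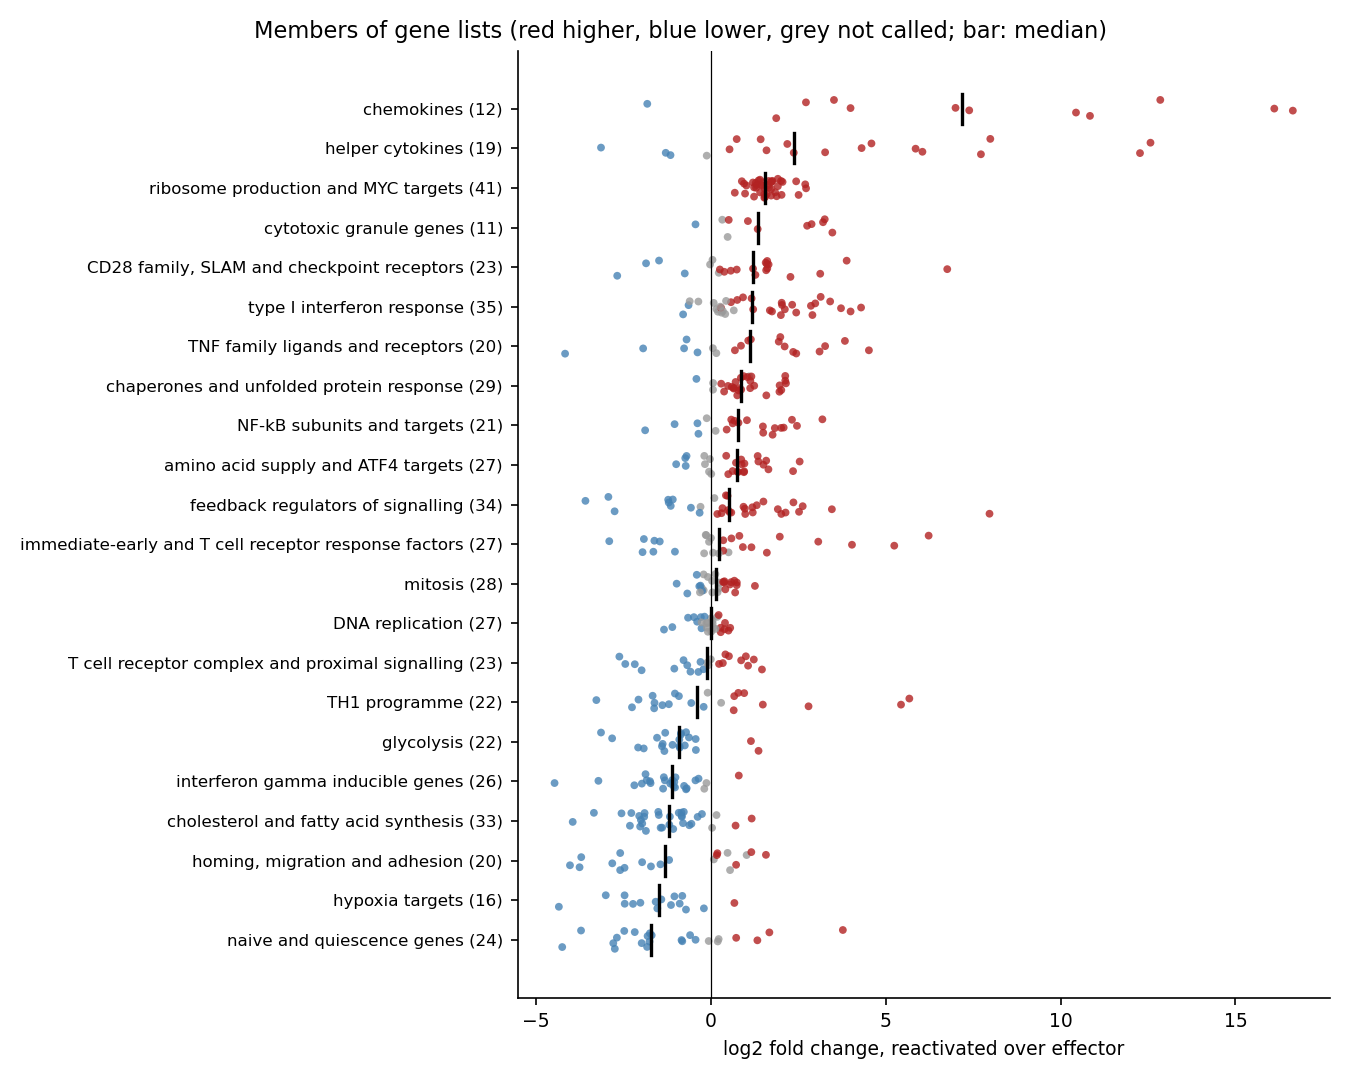
Log2 fold change of reactivated over effector libraries (x axis) for each tested member of 22 gene lists (rows, number of members in parentheses), red where called higher, blue where called lower and grey where not called, with a bar at the median of the list; vertical spread within a row only separates points. Chemokines, cytokines and ribosome production lie to the right of 0, and glycolysis, hypoxia targets, sterol synthesis, interferon gamma targets and quiescence genes to the left.

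Cytotoxic granule genes were higher in 8 of 11 and lower in 1 (median 1.34). Gzmb (granzyme B) ranged from 763 to 968 CPM (median 862) in effector and 869.6 to 3569.96 CPM (2402) in reactivated libraries (log2 fold change 1.34, SE 0.31, adjusted p = 0.000257) and was higher in all 6 pairs. Reactivated library 5, at 869.6 CPM, lay within the effector range, and Gzmb was not called in the second run alone (adjusted p = 0.0806). Prf1 (perforin) ranged from 3.4 to 6.5 CPM (median 5) in effector and 20.5 to 57.3 CPM (35.2) in reactivated libraries (log2 fold change 2.88, SE 0.19, adjusted p = 1.4e-08). Nkg7, a granule membrane protein gene, went from 107 to 1021 CPM (log2 fold change 3.26, SE 0.11, adjusted p = 4.88e-12). Serpinb9, which protects a killer cell from its own granzyme B, went from 21.4 to 213 CPM (log2 fold change 3.47, SE 0.34, adjusted p = 4.36e-11).

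Homing and adhesion genes were lower in 11 of 20 and higher in 5 (median -1.32), with 3 called higher without number 2 and 2 in the second run alone. S1pr1, which lets T cells leave lymphoid organs, ranged from 69.2 to 97.1 CPM (median 86.9) in effector and 4.32 to 10.3 CPM (6.26) in reactivated libraries (log2 fold change -3.75, SE 0.17, adjusted p = 5.7e-10). Klf2, the factor that drives S1pr1, ranged from 15.5 to 31.3 CPM (median 22.3) in effector and 1.19 to 2.31 CPM (1.73) in reactivated libraries (log2 fold change -3.71, SE 0.18, adjusted p = 1.96e-09). Ccr4, a skin and TH2 homing receptor, ranged from 108 to 161.97 CPM (median 118) in effector and 3.71 to 9.71 CPM (8.02) in reactivated libraries (log2 fold change -4.03, SE 0.20, adjusted p = 5.46e-14). Ccr7, the receptor for entry into lymph nodes, averaged 210.2 and 311 CPM, was higher in all 6 pairs and was not called (adjusted p = 0.19), though it was with only the 12 TH1 libraries (0.000784). Cd44 and Itgb1, which bind the matrix, went from 141 to 417 CPM and 165.2 to 368 CPM (log2 fold change 1.57, SE 0.0617, adjusted p = 5.04e-15 and log2 fold change 1.16, SE 0.0382, adjusted p = 1.49e-14). Cd69, which holds S1PR1 inside the cell, averaged 95.8 and 136 CPM (adjusted p = 0.00678) and was not called in the first run alone (0.318).

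Naive and quiescence genes were lower in 17 of 24 and higher in 4 (median -1.72). Pik3ip1, an inhibitor of PI3 kinase, went from 40.5 to 2.25 CPM (log2 fold change -4.25, SE 0.26, adjusted p = 5.92e-10). Rasgrp2 went from 30.9 to 2.35 CPM and Gimap4, a GTPase of lymphocyte survival, from 937 to 140.2 CPM (log2 fold change -2.75, SE 0.0706, adjusted p = 7.48e-18). Slfn2, needed for T cell quiescence, went the other way and ranged from 67.5 to 96.3 CPM (median 82.5) in effector and 1041 to 1193 CPM (1113) in reactivated libraries (log2 fold change 3.77, SE 0.0744, adjusted p = 5.66e-16). Bach2 and Foxp1, which restrain effector differentiation, went from 117 to 368 CPM and 156.6 to 393 CPM. Tcf7, the stem-like factor TCF-1, averaged 269.6 and 176 CPM (adjusted p = 0.0301), a call that was lost without the replicate block (0.0503) and within each run (0.0937 and 0.188).

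Survival genes changed in both directions. Bcl2 ranged from 835 to 1086 CPM (median 985) in effector and 107 to 185 CPM (140.4) in reactivated libraries (log2 fold change -2.804, SE 0.0822, adjusted p = 2.88e-16). Its relatives Bcl2a1b and Bcl2a1d (A1), near-identical copies whose reads cannot be fully assigned, went from 5.72 to 127 CPM and 1.08 to 39.9 CPM. Bcl2l1 (BCL-XL) ranged from 89.2 to 136 CPM (median 100.3) in effector and 259 to 337 CPM (282) in reactivated libraries (log2 fold change 1.47, SE 0.0628, adjusted p = 2.92e-08). Among death genes, Bmf fell from 11.1 to 1.03 CPM (log2 fold change -3.498, SE 0.33, adjusted p = 1.94e-09) and Bad from 15.2 to 3.99 CPM. Bcl2l11 (BIM) averaged 97.1 and 133 CPM (adjusted p = 0.029) and was called neither in the second run nor with only the TH1 libraries (0.614 and 0.0759). Over the list 7 of 20 were higher and 9 lower (median -0.052), beside 40.1% and 40.2% of all genes tested.

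Cell cycle lists had no common direction, and their counts stand beside 40.1% of all genes tested called higher and 40.2% called lower. Of 27 DNA replication genes 7 were higher, 8 lower and 12 not called (median 0.0005), and 13 were lower with scaling by library size alone. Of 28 mitosis genes 11 were higher, 6 lower and 11 not called (median 0.16). Those called lower were 3 without number 5, 2 in the first run alone and 10 with only the 12 TH1 libraries, and those called higher were 6 in the second run alone. The mean log2 CPM of the list was higher in the reactivated library of numbers 1 to 4 and lower in that of number 5 (6.5 to 6.21) and number 6 (6.68 to 6.47). The mitosis genes include Cdc20 from 70.8 to 172 CPM (log2 fold change 1.26, SE 0.11, adjusted p = 1.25e-10) and Ccnb2 from 71 to 36.8 CPM (log2 fold change -0.98, SE 0.18, adjusted p = 2.3e-05). Of 18 G1 genes 6 were higher and 9 lower (median -0.32), among them Ccnd2 from 717 to 1290.01 CPM and Ccnd3 from 476 to 118 CPM (log2 fold change -2.01, SE 0.085, adjusted p = 4.77e-17), so that these D-type cyclin genes moved in opposite directions.

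The gene with the largest drop among those the rule names was Myh11, a smooth muscle myosin heavy chain gene, which ranged from 28.8 to 102 CPM (median 55.6) in effector and 0.113 to 0.688 CPM (0.423) in reactivated libraries (log2 fold change -7.19, SE 0.40, adjusted p = 1.42e-16). Gpld1, which encodes a phospholipase that cleaves GPI anchors, went from 68 to 0.855 CPM (log2 fold change -6.32, SE 0.16, adjusted p = 3.81e-18). Cxcr2, a chemokine receptor best known in neutrophils, went from 14.8 to 0.152 CPM (log2 fold change -6.56, SE 0.22, adjusted p = 9.56e-15), Rufy4 from 27.3 to 0.281 CPM and Icosl, the ligand of ICOS, from 13.3 to 0.269 CPM. Itga7, Dapk2, Scrt1, C1qtnf1, Pygl and Mgarp, also among the 12, fell to between 0.216 and 0.728 CPM. B cell markers and most MHC class II genes were lower as well. All 4 tested B cell markers fell, such as Cd22 from 2.71 to 0.0772 CPM, though Cd79a was not called in the second run alone (log2 fold change -0.09, adjusted p = 0.89). The summed level of the B cell list was highest in effector libraries 2 and 3, at 16.5 and 32.1 CPM against 5.9 to 8.94 CPM in the other effector and 1.13 to 2.45 CPM in the reactivated libraries. MHC class II genes were lower in 7 of 10 and higher in 1, and none was called higher in either run alone or without number 1, 2 or 4. Among those lower, H2-DMa went from 33.6 to 6.16 CPM.

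Naive cells activated for 6 hours, which share no library with the TH1 comparison, show which of these responses differ between the cell states, with the reservation that the stimuli may have differed. The response of TH1 cells differed from that of naive cells for 8620 of 12584 genes (68.5%), being higher for 4345 (34.5%) and lower for 4275 (34%). Responses of opposite sign, both called, were found for 709 genes that rose in TH1 and fell in naive cells (5.63%) and 779 with the reverse (6.19%). Il2 and Csf2 had no counts in naive libraries, so that a fold there has no base. Il2 averaged 16.7 CPM in activated naive and 409 CPM in reactivated TH1 libraries, and Csf2 2.33 and 129 CPM. Tnf showed no difference of response that passed the test (difference -0.06, adjusted p = 0.819). Ifng, at 0.112 CPM in naive and 0.481 CPM in activated naive libraries, responded more in TH1 cells (difference 4.08, adjusted p = 0.00502). The same held for Il3 (difference 9.14, adjusted p = 0.00193), Xcl1 (difference 6.801, adjusted p = 4.44e-05) and Ccl3 (difference 6.42, adjusted p = 0.00583). Effector levels were low, at 0 to 0.424 CPM for Il3, 0 to 0.0577 CPM for Xcl1 and 0.317 to 1.64 CPM for Ccl3. The sizes of these differences depend on such low bases. Ccl1 averaged 0.0523 CPM in activated naive and 317 CPM in reactivated TH1 libraries, and with no counts in naive or effector libraries its responses could not be compared as folds.

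Several activation genes that rose in naive cells rose less or fell in TH1 cells. Il2ra rose in naive cells (log2 fold change 6.34, adjusted p = 4.21e-24) and fell in TH1 cells (difference -7.596, adjusted p = 1.08e-23). Icos, Ctla4 and Ccr4 had the same pair of signs (differences -4.67, -4.76 and -7.701, adjusted p = 3.62e-19, 1.54e-06 and 2.54e-15). Lif was induced in naive cells and lower in reactivated TH1 cells (difference -7.68, adjusted p = 4.5e-14). Nr4a1 rose in naive cells (log2 fold change 4.47) and responded less in TH1 cells (difference -3.31, adjusted p = 5.98e-05). In TH1 cells Nr4a1 was lower after reactivation in number 5 (412 to 403 CPM) and number 6 (498 to 309 CPM), and its call was not kept in every fit. Myc and Irf4, which changed little in TH1 cells, rose by 3.98 and 9.03 on the log2 scale in naive cells. The lactate exporter Slc16a3 and Hif1a rose in naive cells and fell in TH1 cells (differences -7.46 and -3.33, adjusted p = 8.61e-14 and 1e-14). The type I interferon targets Rsad2 and Mx1 responded more in TH1 cells (differences 5.07 and 5.48, adjusted p = 1.16e-05 and 1.29e-05). So did Eomes, Cd40lg and Prf1 (differences 4.44, 2.23 and 4.17, adjusted p = 3.2e-06, 5.25e-07 and 1.27e-08). Ifngr1 fell in both cell states and by more in TH1 cells (difference -0.72, adjusted p = 0.000726).

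**Figure D5:**
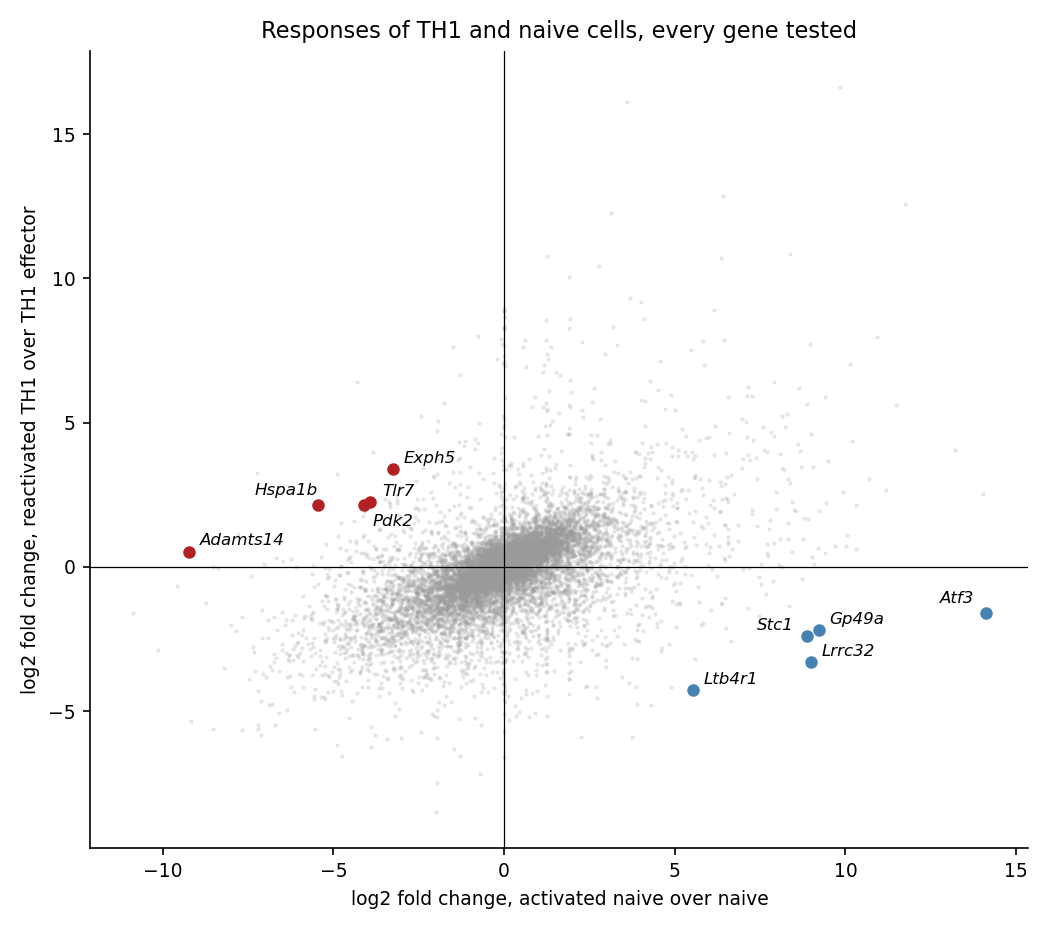
Log2 fold change of reactivated TH1 over TH1 effector libraries (y axis) against that of activated naive over naive libraries (x axis) for the genes tested, 1 grey point each, with the 5 largest positive (red) and 5 largest negative (blue) differences among genes with called responses of opposite sign. Atf3 lies farthest to the right among the labelled genes, at 14.11 in naive and -1.61 in TH1 cells, but it had no counts in naive libraries, so that its place on the x axis is a fitted value and no measured fold.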

How the data were processed

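The authors deposited 1 table of raw counts per gene for each of the 24 libraries. Per the labels' protocols, RNA of sorted cells went into a stranded kit. Tools named by the submitters' processing notes are STAR, HTSeq and DESeq2, and the build is mm10. How strand was set and which annotation was counted is not stated there. Lines for reads given to no gene were left out; reads that met no counted feature averaged 17.2% beside effector and 15.6% beside reactivated gene counts.

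The 24 libraries were fitted in R 4.3.3 with edgeR 4.0.16 (limma 3.58.1): filterByExpr on the 4 groups, which kept 12584 of 23420 genes, TMM factors, group and replicate number as terms, robust glmQLFit, glmQLFTest and Benjamini-Hochberg adjustment. DESeq2 1.42.0 served as an alternative. On simulated counts of 12091 genes, 100 of 100 genes changed 2-fold and 100 of 100 changed 4-fold were recovered, and 0.101% of unchanged genes were called. The simulation changed few genes, as many up as down, all with ample counts, and set the same spread for every gene. It therefore does not cover genes with few counts or data in which most genes change. Same-numbered libraries deviated together from their group means (r 0.21 to 0.37, within runs 0.18 to 0.37), and each correlated best with its own number in 6 of 6 cases both ways, so the number was taken as a pairing found in the data. The run is the flow cell named by the files, with numbers 1 to 3 in the first and 4 to 6 in the second. Where a group had no counts, the bound compares the other group's summed counts with 3 counts over its 6 libraries, both scaled by summed library size, which covers counting error only.

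The members, lists and rule were chosen with earlier results of these data known. The rule names the 12 largest changes each way with at least 10 CPM and the same direction in all 6 pairs. It also names 3 each way per list with at least 1 CPM, a fixed set, and the 5 largest differences of response each way. Irf1, Hif1a, Tpi1, Gapdh, Sqle, Odc1, Hspa5, Isg15, Gbp5, Tgtp1, Spp1, Emr1, Cd14, Il1b and Gata3 were chosen after their values were seen. Some genes that the rule names are not reported here. Promoters are from RefSeq (GRCm38.p6), and gene coordinates from GENCODE M21 on the same build. GENCODE M21 types Cxcl11, Gbp11 and Clec7a as polymorphic pseudogenes.

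Exons of these named genes overlap a gene on the other strand, whose reads may be counted with them: Acss2, Bach2, Bad, Bcat1, Bcl2, Bcl3, Bcl6, Bnip3, C1qtnf1, Ccnd2, Ccnd3, Cd160, Cd22, Cd3e, Cdc20, Csf1r, Csf2, Cxcl11, Eomes, Fosl1, Gapdh, Gata3, Gpld1, Grwd1, H2-DMa, Hif1a, Ikzf2, Il12rb2, Il1a, Il1b, Il21, Il4ra, Irf1, Itga7, Jun, Lcp2, Ndrg1, Oasl1, Pik3ip1, Rasgrp2, Rgs16, Rrp9, Samd4, Shmt1, Sla2, Spry1, Stc1, Tnfrsf18, Tnfsf9, Tpi1 and Xcl1. Exons of Bcl2a1b, Cd74, Foxp1, Gata3, Gbp4, Gbp8, Hif1a, Ifng, Lat, Spp1, Stat4 and Tgtp1 overlap a gene on the same strand. The values of these genes are uncertain to that extent, as are those of near-identical families (Gbp, Ifit, Bcl2a1, the trypsin-like genes).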

Additional observations from a re-analysis of the deposited data

Results flagged for a closer look

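Among genes whose called responses had opposite signs in TH1 and naive cells, the response of TH1 cells exceeded that of naive cells most for Adamts14, a matrix protease gene (difference 9.753 on the log2 scale), Hspa1b, a heat shock gene (7.613), Exph5, of vesicle traffic (6.652), Pdk2, a pyruvate dehydrogenase kinase (6.249), and Tlr7, a sensor of single-stranded RNA (6.163). Levels went from 2.44 to 24.7 CPM for Exph5, from 3.97 to 17.6 CPM for Pdk2 and from 2.62 to 12.9 CPM for Tlr7 in TH1 cells. Adamts14 went only from 1.71 to 2.46 CPM there, so most of its difference lies in the response of naive cells. Its call in TH1 cells was lost with scaling by library size alone (adjusted p = 0.051) and in the first run (0.135). Hspa1b stayed low in TH1 cells, at 0.319 to 0.842 CPM in effector and 1.41 to 3.67 CPM in reactivated libraries. The reverse was found for the factor gene Atf3 (-15.72), Lrrc32, which docks latent TGF-beta (-12.3), Gp49a, a gene of the gp49 receptor family (-11.43), Stc1 (-11.27) and Ltb4r1, a leukotriene B4 receptor (-9.811). Gp49a fell from 504 to 108 CPM, Atf3 from 47.5 to 15.8 CPM and Ltb4r1 from 22.9 to 1.16 CPM in TH1 cells, all without overlap. Stc1 was low in TH1 cells, at 0.593 to 4.85 CPM in effector and 0.183 to 0.643 CPM in reactivated libraries. In number 5 it was slightly higher after reactivation (0.593 to 0.643 CPM). Atf3 and Ltb4r1 had no counts in naive libraries and averaged 85.1 and 0.218 CPM in activated naive ones, so that the size of their differences depends on the fit. Adjusted p of these differences ran from 4.99e-08 for Ltb4r1 to 9.45e-20 for Gp49a.

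In 23 of 400 groups of 6 values tested, for the genes named in the text, 1 library stood apart from the other 5; chance gives about 1 in 20. Reactivated number 5 was low for Batf3 (10.3 CPM, the others 16.3 to 20.8), Ccr4 (3.71 against 7.36 to 9.71), Nfil3 (17.9 against 31.9 to 35.9), Osm (31.2 against 41.4 to 46.1), Scd1 (21.6 against 34 to 44.2), Sqle (66.4 against 76.9 to 80.5) and Tnfrsf8 (4.43 against 7.19 to 8.75). Reactivated number 4 was low for Fasn (636 against 808 to 883), Rrp9 (177 against 196 to 205) and Slc1a5 (762 against 855 to 890.3), number 6 for Ccl9 (86.6 against 127 to 155.1) and number 3 for H2-Ob (0.639 against 1.32 to 1.49). Effector number 1 was high for Ccnb2 (91 against 64 to 70) and Shmt1 (50.5 against 38.4 to 40.2) and low for Ccl9 (0.029 against 0.0887 to 0.133) and Lyz2 (0 against 0.0442 to 0.137). Effector number 4 was high for Ccr4 (161.97 against 108 to 124), Utp20 (68.6 against 56.6 to 60.1) and Gm2663 (0.0443 against 0 in the others). Effector number 5 was high for Cd160 (2.01 against 0.798 to 1.1) and Gimap4 (1052 against 889 to 935) and low for Ltb4r1 (10.9 against 21.9 to 30.7), and number 6 low for Bcl2a1b (4.42 against 5.79 to 6.16).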

How the results depend on the processing

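Over the 16 alternatives, 207 named genes kept direction and call in each one that tested them, and the other 29 did not. The filter at 10 CPM in a group tested 9637 genes, so named genes at low levels were not judged there. Direction reversed for Egr1 in the first run (-0.40, adjusted p = 0.00499), for Bcl2l11 in the second run (-0.11), and for Cd14 in the second run (0.069) and without number 2 (0.18); neither Cd14 nor Bcl2l11 was called in those fits. Testing against a 1.5-fold change left 2461 genes higher and 2982 lower, fewer because small changes no longer count. Without the replicate block, with group and run as terms, 5025 genes were higher and 5007 lower, and the difference of responses gave 4313 and 4240; among the named genes the unpaired fit ended the calls of Lta, Tcf7 and Stc2. The runs alone gave 4743 and 4941 in the first and 4449 and 4371 in the second, and leaving out 1 number gave 4862 to 5030 higher and 4858 to 5017 lower. Scaling by library size alone moved the median of all genes to -0.125 and gave 4392 higher and 5733 lower; RLE scaling moved it to -0.0641, and DESeq2 gave 4712 and 5358. Without numbers 5 and 6, a setting added after the data were seen, 22 type I interferon genes were higher, 4 lower, and 24 interferon gamma genes lower. Homing genes called higher numbered 3 instead of 5 under DESeq2 and both other scalings. The depth leaves effector levels of Ccl1, Il17f and the defining macrophage markers near the floor of 0.0177 CPM.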

Other observations

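Markers of other cells were followed in the same libraries. Of 7 tested markers of CD8, NK and innate T cells, 3 were higher and 1 lower, and none was called lower in the first run alone or without number 3, 4 or 5. Cd8a averaged 0.369 and 1.33 CPM and Klrc1, an NKG2 receptor gene, 2.28 and 6.76 CPM, the latter not called in the second run alone (adjusted p = 0.0565). Zbtb46, a dendritic cell factor gene, went from 1.52 to 7.71 CPM (log2 fold change 2.44, SE 0.26, adjusted p = 4.11e-10). Among macrophage markers, Il1a averaged 0.02 and 8.5 CPM, Clec7a (dectin-1) 0.0149 and 4.35 CPM, and C1qb had no counts in effector and 1 to 1.95 CPM in reactivated libraries, by summed counts at least 84.8-fold higher than 3 counts over the effector libraries would give. The toll-like receptor gene Tlr4 was lower, from 2.02 to 0.878 CPM (log2 fold change -1.24, SE 0.29, adjusted p = 0.000603). H2-DMb2 and H2-Ob, which serve peptide loading of MHC class II, fell from 5.76 to 0.384 CPM and 8.68 to 1.27 CPM, whereas Cd74, the invariant chain, averaged 45.2 and 66.5 CPM and was called in neither run alone (adjusted p = 0.141 and 0.103).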
